A study of Mus musculus with 16 samples.

Results

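The 10 genes described here are Itpr1, Stim1, Stim2, Orai1, Ppp3ca, Ppp3cb, Nfatc1, Nfatc2, Nfatc3 and Rcan1, which carry a calcium signal from the endoplasmic reticulum to transcription. They were chosen by symbol, and all 10 were found among the 53465 genes of the count table. RNA came from type 2 innate lymphoid cells (group 2 ILC, ILC2), lymphocytes resident in tissue, that had been sorted from the duodenum of untreated, specific-pathogen-free C57BL/6 mice of 6 to 10 weeks.

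Alox5 KO mice lacked 5-lipoxygenase, the enzyme that starts leukotriene synthesis, and were Alox5 (-/-) with smart13/smart13 at Il13. Il25 KO mice lacked the tuft cell cytokine IL-25 and were Il25 (-/-), Arg1 Yarg/Yarg and Il13 smart13/smart13. St2 KO mice lacked the receptor of IL-33 and were St2 (-/-), Arg1 Yarg/Yarg and Il13 smart13/smart13. WT mice were wild type apart from Il13 smart13/smart13, so every genotype carried the Il13 reporter, and the Arg1 reporter Yarg was carried by Il25 KO and St2 KO and not by WT or Alox5 KO. Each genotype had 4 libraries, and no label ties a library to its own mouse, so p-values reflect only the spread among these libraries, which may be technical. Sample codes divided the libraries into 3 sets. Set TS was made up of replicates 1 and 2 from each genotype. Replicates 3 and 4 were coded TT where the genotype was Alox5 KO or WT, and TY where it was Il25 KO or St2 KO. The letters are not explained in the labels. Xist, made from the inactive X chromosome of females, was counted 982 to 1682 times in each TY library, against 0 to 7 times in the 12 others. Ddx3y, a gene of the Y chromosome, was counted 0 to 2 times in each TY library, against 709 to 1630 times in the 12 others.

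Calcium signalling in lymphocytes begins when a receptor activates a phospholipase C, which makes inositol trisphosphate. The inositol trisphosphate receptors release calcium from the endoplasmic reticulum, the STIM proteins sense the emptied store, and STIM opens the ORAI1 channel in the plasma membrane. The calcium that enters switches on the phosphatase calcineurin, which removes phosphates from NFAT proteins so that they enter the nucleus, and RCAN1 binds and restrains calcineurin. Leukotriene receptors of mouse ILC2 are known to raise intracellular calcium and to send NFAT to the nucleus. The activity of these proteins is set largely by calcium and phosphorylation, and only RNA was measured here.

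Library totals ran from 2086864 to 3216937 counts, with 15490 to 16529 genes detected. The ILC2 markers Gata3 (527 to 681 counts per 1000000, CPM), Il7r and Il17rb had counts in all 16 libraries. Among T cell markers Cd3g stood at 54.4 to 148 CPM, while Cd4 did not exceed 1.08 CPM. The summed level of 7 B and plasma cell markers varied most, between 1.99 and 725 CPM in Alox5 KO, 470 and 793 CPM in the Il25 KO libraries, 33.0 and 542 CPM in those of St2 KO, and 648 and 838 CPM in WT. Its low values were in Alox5 KO libraries 1 and 2 and St2 KO library 1, and some results that lean on those libraries are also given without them. Alox5 KO then has libraries only in set TT, so its comparison with WT is the one within that set. Of the targeted genes, Alox5 fell in Alox5 KO (log2 fold change -3.28 ± 0.396 SE, adjusted p = 0.000411 by the edgeR quasi-likelihood test). Il1rl1, which encodes ST2, ranged over 126 to 208 CPM where the label was St2 KO, against 169 to 246 CPM in WT (adjusted p = 0.890), and Il25 had no counts in any library, so neither gene's RNA checks its label and St2 KO below means the libraries labelled so. Arg1 fell in both genotypes that carry Yarg, with Il25 KO at 21.0 ± 3.81 CPM and St2 KO at 22.3 ± 7.61 CPM, against 336 ± 35.0 CPM in WT (SD, n = 4 each, adjusted p = 4.61e-10 and 3.83e-10).

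All 10 genes were expressed in every library, and none passed the test in any comparison. Levels between genes were compared per kilobase of annotated exon. Orai1 was the most abundant on this scale, with a mean of 47.2 CPM per kb over the 16 libraries, above 87.4% of the 11733 tested genes with an exon length. Ppp3ca (24.2 CPM per kb), Stim1 (23.4 CPM per kb), Nfatc3 (22.0 CPM per kb) and Nfatc1 (18.3 CPM per kb) came next. Rcan1 (11.8 CPM per kb) lay close to the median of the tested genes, 10.6 CPM per kb. Ppp3cb (9.09 CPM per kb), Itpr1 (7.35 CPM per kb), Stim2 (7.20 CPM per kb) and Nfatc2 (3.36 CPM per kb) lay below that median. Exon lengths were taken over all annotated transcripts, so a gene whose long transcripts are little used in these cells is placed too low.

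**Figure D1:**
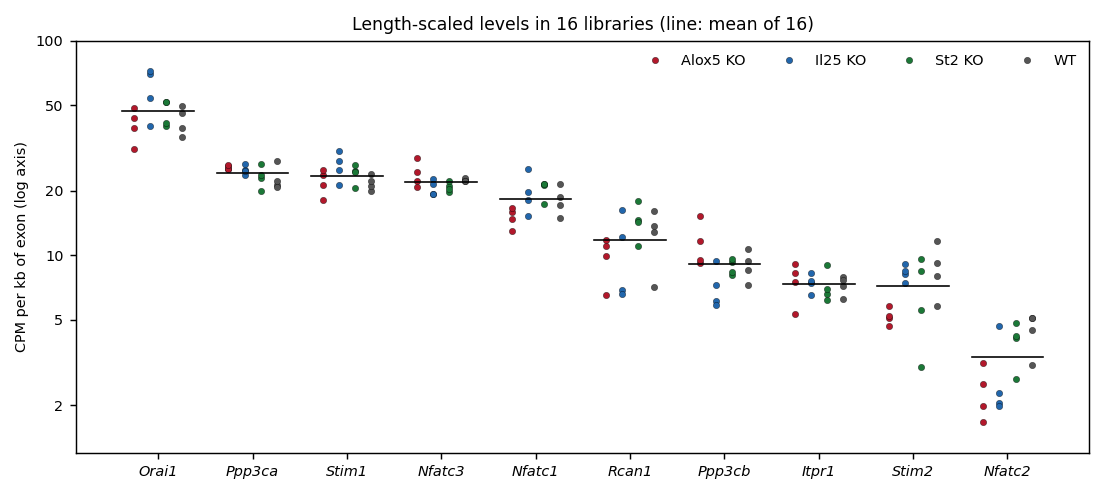
Length-scaled level of each gene (CPM per kb of exon, log axis) in the 16 libraries, coloured by genotype from left to right as Alox5 KO, Il25 KO, St2 KO and WT, with a line at the mean of the 16. Orai1 is highest at 47.2 CPM per kb and Nfatc2 lowest at 3.36 CPM per kb, and the points of the genotypes intermingle for most genes.

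Each gene was then compared between the genotypes with edgeR's quasi-likelihood test, with sample-code set as a term in the model and Benjamini-Hochberg adjustment over 11742 genes at a threshold of 0.05. In Alox5 KO over WT, 0 of 10 genes were called, where 0.102% of all tested genes were, and 2 had an unadjusted p under 0.05, where 7.17% of all genes did. For Il25 KO over WT the count was 0 called, against 0.417% of all genes, with 2 under the unadjusted threshold, against 9.3% of all. St2 KO over WT gave 0 called, against 0.298%, with 0 under the unadjusted threshold, against 7.49%. Il25 KO over St2 KO gave 0 called, against 1.24%, with 1 under the unadjusted threshold, against 11.3%. A test of any difference among the 4 genotypes also called 0 of 10, against 1.17% of all genes, with 2 under the unadjusted threshold, against 12.2%. DESeq2 called 0 of the 10 in each of these 5 tests. With calls this rare among all genes, 0 of 10 is near the background in every test.

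The fitted differences were centred near 0. The median log2 fold change of the 10 genes was -0.01 in Alox5 KO over WT, 0.02 in Il25 KO over WT, 0.0028 in St2 KO over WT and 0.07 in Il25 KO over St2 KO, beside 0.01, 0.0028, 0.01 and -0.01 over all genes tested. In each comparison with WT 5 genes had a positive estimate and 5 a negative one, and in Il25 KO over St2 KO 6 were positive and 4 negative. No bound of a 95% interval among the 40 differences lay further from 0 than 1.65 on the log2 scale. No gene had its groups apart without overlap in CPM in any of the 4 comparisons, where 3.84% (Alox5 KO over WT), 6.78% (Il25 KO over WT), 8.47% (St2 KO over WT) and 5.95% (Il25 KO over St2 KO) of all tested genes did. When the genotypes of each gene were put in order of mean CPM, all 30 pairs of neighbours overlapped.

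**Figure D2:**
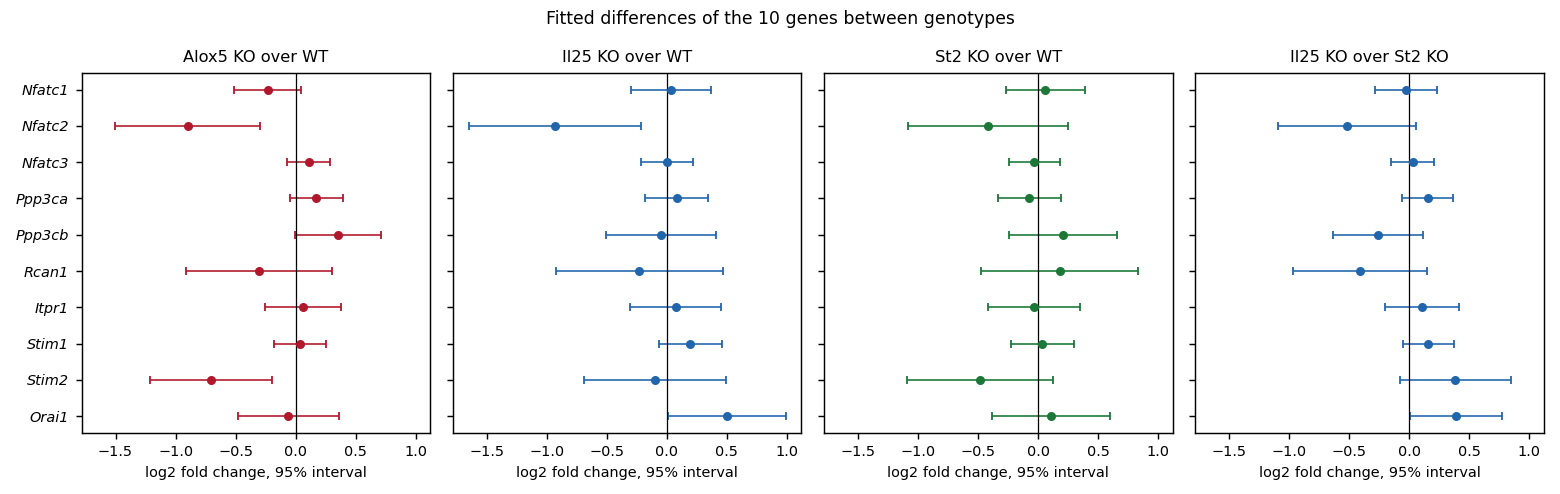
Log2 fold change with its 95% interval for each gene in the 4 comparisons, with a vertical line at 0. The intervals of Nfatc2 and Stim2 in Alox5 KO over WT, Nfatc2 and Orai1 in Il25 KO over WT, and Orai1 in Il25 KO over St2 KO leave out 0 before adjustment, and none of them passed the adjusted test.

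Itpr1 (ENSMUSG00000030102, GRCm38 chromosome 6, 108213096 to 108551109, plus strand) encodes the type 1 inositol trisphosphate receptor, a calcium release channel of the endoplasmic reticulum. It had 97.9, 151, 137 and 166 CPM in Alox5 KO, 119.6, 152, 136 and 139 CPM in the Il25 KO libraries, 113, 121, 127 and 164 CPM in those of St2 KO, and 115, 145, 140.4 and 132 CPM in WT. The groups overlapped throughout, and the highest mean was only 1.05 times the lowest, the smallest span of the 10 genes. Its log2 fold changes lay between -0.03 (St2 KO over WT) and 0.11 (Il25 KO over St2 KO). Relative to the other inositol trisphosphate receptors, Itpr1 had the lowest level per length, 7.35 ± 1.03 CPM per kb against 39.4 ± 4.63 CPM per kb for Itpr2 and 11.4 ± 3.39 CPM per kb for Itpr3 (SD over 16 libraries).

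Stim1 (ENSMUSG00000030987, chromosome 7, 102267806 to 102437319, plus strand) encodes the main sensor of store calcium. It had 219, 245, 259 and 188 CPM in Alox5 KO, 259, 221, 319 and 285 CPM in the Il25 KO libraries, 213, 255, 272 and 254 CPM in those of St2 KO, and 206, 217, 229.6 and 248 CPM in WT. The 4 ranges overlapped, and Il25 KO had the highest mean. Its largest estimate was Il25 KO over WT, 0.20 ± 0.126 on the log2 scale, with an adjusted p of 0.693.

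Stim2 (ENSMUSG00000039156, chromosome 5, 53998499 to 54121057, plus strand) encodes the second sensor, which responds to smaller drops in store calcium. It had 26.3, 24.0, 29.7 and 26.8 CPM in Alox5 KO, 38.2, 42.2, 46.8 and 43.1 CPM in the Il25 KO libraries, 15.5, 28.6, 43.5 and 49.2 CPM in those of St2 KO, and 29.7, 41.3, 47.0 and 59.7 CPM in WT. Alox5 KO libraries were tightly grouped at the low end, and the highest of them, 29.745 CPM, just overlapped the lowest WT library, 29.741 CPM. The log2 fold change of Alox5 KO over WT was -0.70 ± 0.242, with a 95% interval from -1.21 to -0.20, and it did not pass the adjusted test (unadjusted p = 0.0092, adjusted p = 0.538). It was -0.88 ± 0.297 without the 3 libraries low in plasma cell markers (adjusted p = 0.768). Those 3 include both Alox5 KO libraries of set TS, so this is the comparison within set TT. St2 KO had a wide spread, with its 2 TS libraries below its 2 TY libraries, and St2 KO over WT was -0.49 ± 0.289 with those 3 libraries and -0.10 ± 0.301 without them (adjusted p = 0.753 and 0.977). In Il25 KO over St2 KO the difference was 0.90 within set TS and -0.01 within set TY, and a test of the change between sets gave an unadjusted p of 0.0413 and an adjusted p of 0.999.

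Stim1 exceeded Stim2 per length in every library, by 2.06 to 6.80 times. The highest, 6.80, was St2 KO library 1, which was low in plasma cell markers. The ratio averaged 4.25 ± 0.660 in Alox5 KO, 3.14 ± 0.372 in Il25 KO, 4.22 ± 1.89 in St2 KO and 2.63 ± 0.578 in WT (SD, n = 4 each). All 4 Alox5 KO libraries, at 3.46 to 5.07, lay above all 4 WT libraries, at 2.06 to 3.43. The ratio was described and not tested, and how often ratios of other genes separate in this way was not computed.

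Orai1 (ENSMUSG00000049686, chromosome 5, 123015074 to 123030456, plus strand) encodes the pore of the store-operated calcium channel. It had 72.1, 100.1, 90.4 and 111 CPM in Alox5 KO, 91.9, 161, 165 and 124 CPM in the Il25 KO libraries, 119, 92.0, 119 and 94.96 CPM in those of St2 KO, and 105, 89.5, 114 and 81.7 CPM in WT. In Il25 KO 3 libraries lay above every St2 KO and WT library, while library 1 lay among the WT libraries and just below the St2 KO ones. The log2 fold change was 0.50 ± 0.233 in Il25 KO over WT (95% interval 0.01 to 0.99, unadjusted p = 0.0459, adjusted p = 0.526) and 0.39 ± 0.183 in Il25 KO over St2 KO (unadjusted p = 0.0456, adjusted p = 0.434). Il25 KO library 1 also had the highest summed level of 6 epithelial markers, 167.9 CPM, where the other Il25 KO libraries had 20.8 to 22.0 CPM. Without it the estimates were 0.76 ± 0.222 and 0.57 ± 0.169 (adjusted p = 0.171 and 0.120), and 0.120 was the lowest adjusted p of any of the 10 genes in a pairwise comparison under any alternative. Its omission removes the lowest Il25 KO value, and the part of epithelial RNA was not tested. Without Il25 KO library 2 the estimates were 0.25 ± 0.251 and 0.22 ± 0.189 (adjusted p = 0.886 and 0.822), so 1 library moves them either way. Over all 16 libraries Orai1 had a coefficient of variation of 23.9%, higher than 92.2% of the 1270 genes within 1.2-fold of its level.

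**Figure D3:**
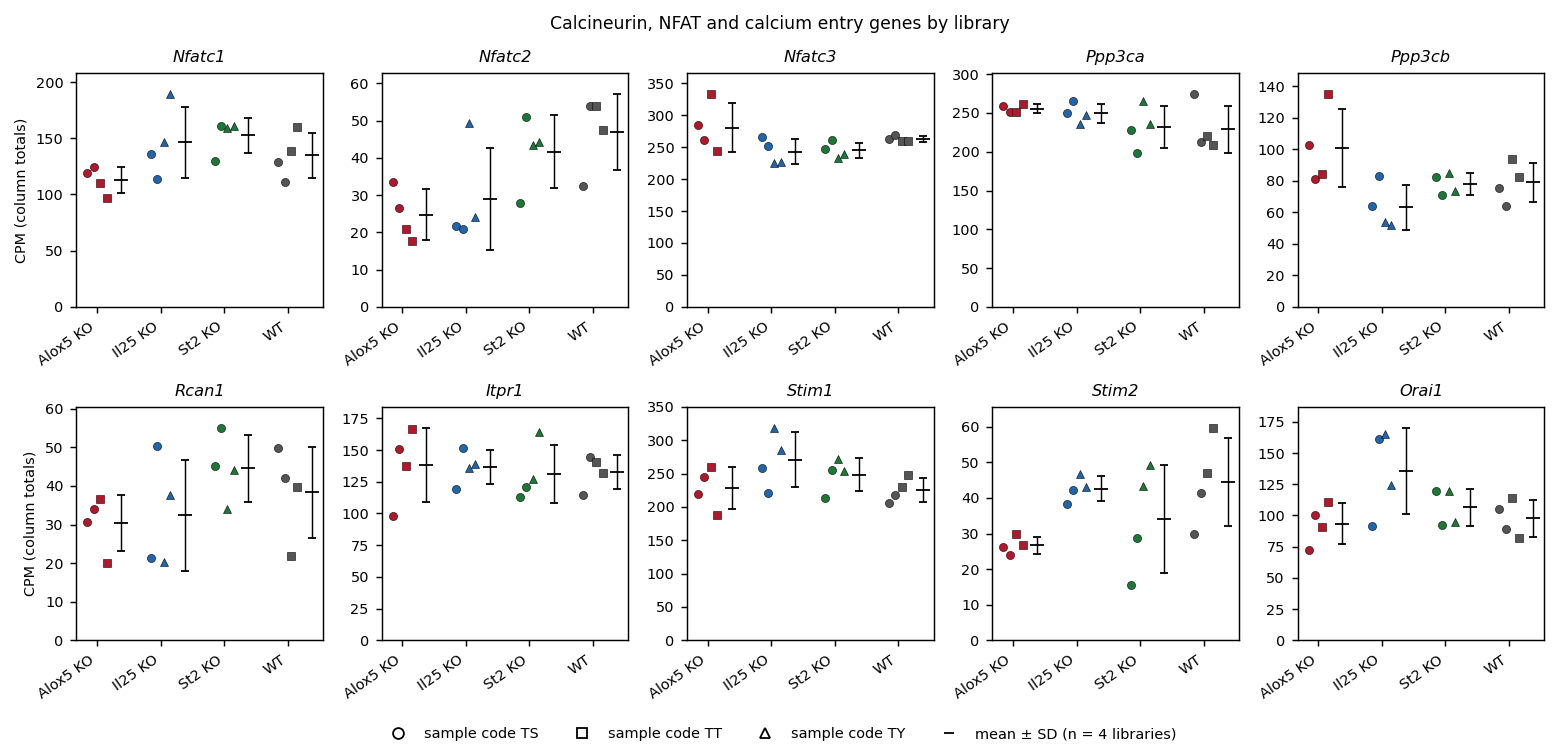
CPM of each gene in the 16 libraries, by genotype (Alox5 KO, Il25 KO, St2 KO, WT), with the marker giving the sample code and bars the mean ± SD of 4 libraries. The ranges of each knockout and WT overlap in every panel, and Nfatc2 shows 3 Il25 KO libraries at 20.9 to 24.1 CPM and the remaining one at 49.3 CPM.

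Ppp3ca (ENSMUSG00000028161, chromosome 3, 136670124 to 136937727, plus strand) encodes the alpha isoform of the catalytic subunit of calcineurin. It had 259, 251, 251 and 262 CPM in Alox5 KO, 250.1, 265, 236 and 247 CPM in the Il25 KO libraries, 228, 199, 266 and 236 CPM in those of St2 KO, and 274, 212, 221 and 208 CPM in WT. The 4 Alox5 KO libraries were close together, above 3 of the 4 WT libraries and below the other. Its coefficient of variation over the 16 libraries, 9.33%, was the lowest of the 10 genes. The estimates ran from -0.07 (St2 KO over WT) to 0.17 ± 0.104 (Alox5 KO over WT, adjusted p = 0.751).

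Ppp3cb (ENSMUSG00000021816, chromosome 14, 20499364 to 20546573, minus strand) encodes the beta isoform of the catalytic subunit, the one that mature lymphocytes are best known to need. It had 102, 80.8, 84.1 and 135 CPM in Alox5 KO, 63.8, 82.9, 53.8 and 51.7 CPM in the Il25 KO libraries, 82.3, 70.9, 84.7 and 73.6 CPM in those of St2 KO, and 75.3, 64.0, 93.7 and 82.5 CPM in WT. Alox5 KO held the 2 highest libraries, and Il25 KO the 3 lowest. Alox5 KO over WT was 0.35 ± 0.172 on the log2 scale (unadjusted p = 0.0545, adjusted p = 0.691). Il25 KO over WT was -0.05 ± 0.219 although the mean CPM was 63.0 ± 14.3 in Il25 KO and 78.9 ± 12.5 in WT (SD, n = 4 each), and only set TS holds libraries of both, while the model compares within sets. The low Il25 KO values were those of set TY, where Il25 KO over St2 KO was -0.55, against -0.01 within set TS (unadjusted p of the change between sets 0.152).

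Ppp3ca exceeded Ppp3cb per length in every library, by 1.71 to 4.22 times. The ratio averaged 2.33 ± 0.466 in Alox5 KO, 3.59 ± 0.600 in Il25 KO, 2.63 ± 0.195 in St2 KO and 2.61 ± 0.545 in WT (SD, n = 4 each, not tested). The Il25 KO libraries ran from 2.82 to 4.22 and overlapped both the St2 KO libraries, which reached 2.83, and the WT libraries, which reached 3.21.

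Nfatc1 (ENSMUSG00000033016, chromosome 18, minus strand) encodes NFATc1, which is known to be induced by NFAT itself in activated lymphocytes. It had 119, 124, 110.3 and 97.3 CPM in Alox5 KO, 136, 114, 147 and 189 CPM in the Il25 KO libraries, 129, 161, 159 and 161 CPM in those of St2 KO, and 129, 111, 139 and 159.8 CPM in WT. Each knockout overlapped WT. The lowest genotype, Alox5 KO, and the highest, St2 KO, did not overlap each other, which is a description of the ordered means and was not tested. How often other genes separate between these genotypes was not computed. Only set TS holds libraries of both, and the rest are in set TT for Alox5 KO and set TY for St2 KO. The nearest libraries, at 124 CPM in Alox5 KO and 129 CPM in St2 KO, were among those low in plasma cell markers. Alox5 KO over WT was -0.23 ± 0.133 (adjusted p = 0.732). It was 0.02 within set TS and -0.50 within set TT, and the change between sets had an unadjusted p of 0.0493 and an adjusted p of 1.0.

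Nfatc2 (ENSMUSG00000027544, chromosome 2, 168476410 to 168601657, minus strand) encodes NFATc2, a form held in the cytoplasm of lymphocytes before stimulation. It had 33.4, 26.7, 21.0 and 17.7 CPM in Alox5 KO, 21.6, 20.9, 49.3 and 24.1 CPM in the Il25 KO libraries, 28.0, 51.0, 43.5 and 44.4 CPM in those of St2 KO, and 32.4, 54.0, 53.8 and 47.4 CPM in WT. In Alox5 KO 3 libraries, and in Il25 KO 3 libraries, lay below every WT library, while the remaining library of each genotype lay among those of WT. The log2 fold change was -0.90 ± 0.286 in Alox5 KO over WT (95% interval -1.50 to -0.30) and -0.93 ± 0.341 in Il25 KO over WT (95% interval -1.65 to -0.22). Neither passed, with unadjusted p of 0.0056 and 0.0134 and adjusted p of 0.450 and 0.367. Both comparisons share the WT libraries. St2 KO over WT was -0.42 ± 0.318 (adjusted p = 0.824). It was -0.08 ± 0.368 without the 3 libraries low in plasma cell markers (adjusted p = 0.983), and between -0.84 (without St2 KO library 2) and -0.25 (without St2 KO library 1) when 1 library was left out.

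The 4 pairwise estimates of Nfatc2 were negative under all 25 alternatives, though of varying size. These fits reuse the same libraries, and the comparisons with WT share its libraries, so the common sign is not independent support. Alox5 KO over WT was -0.52 within set TS and -1.35 within set TT, and the change between sets had an unadjusted p of 0.165. Without the 3 libraries low in plasma cell markers it was -1.35 ± 0.422 (adjusted p = 0.724). That is the set TT comparison again and no separate check, since the 3 include both Alox5 KO libraries of set TS. Over all alternatives the adjusted p of Nfatc2 ran from 0.251 to 0.998 in Alox5 KO over WT and from 0.185 to 0.779 in Il25 KO over WT. Counts were low, between 37 and 164 per library. The coefficient of variation of Nfatc2 was 37.0%, the highest of the 10 genes and above that of 87.5% of the 1012 genes within 1.2-fold of its level. The test of any difference among the 4 genotypes gave Nfatc2 the lowest p of the 10, 0.0128 unadjusted and 0.251 adjusted.

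Nfatc3 (ENSMUSG00000031902, chromosome 8, 106058840 to 106130537, plus strand) encodes NFATc3, a form known from thymocytes and mature T cells. It had 285, 260.5, 332 and 244 CPM in Alox5 KO, 266, 252, 226 and 227 CPM in the Il25 KO libraries, 247, 261, 232 and 239.8 CPM in those of St2 KO, and 263, 269.5, 259 and 259.9 CPM in WT. The WT libraries had an SD of only 4.80 CPM, and the Alox5 KO libraries lay on both sides of them. The estimates ran only from -0.03 (St2 KO over WT) to 0.11 ± 0.085 (Alox5 KO over WT, adjusted p = 0.805). Of the summed length-scaled level of the 3 NFAT genes, Nfatc3 made up 50.6% ± 6.10, Nfatc1 41.7% ± 5.30 and Nfatc2 7.62% ± 2.54 (SD over 16 libraries). The share of Nfatc2 was 5.63% ± 1.33 in Alox5 KO, 6.35% ± 2.89 in Il25 KO, 8.63% ± 1.51 in St2 KO and 9.87% ± 2.08 in WT (SD, n = 4 each, not tested).

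Rcan1 (ENSMUSG00000022951, chromosome 16, 92391953 to 92470867, minus strand) encodes the calcineurin inhibitor that is itself switched on by NFAT from an internal promoter in several cell types, which makes it a familiar readout of calcineurin activity. RefSeq lists an internal and an upstream start for it in the mouse. The 250 bases before each are shown because the known NFAT response belongs to the internal start, and the table counts both starts together, so these data cannot separate them. Capitals mark the core GGAAA on either strand (read as TTTCC on the other), the part of the NFAT site that the protein contacts. The windows lie on the minus strand of GRCm38.p6 at chr16:92400079-92400328 (internal) and chr16:92466170-92466419 (upstream).
Rcan1 internal start: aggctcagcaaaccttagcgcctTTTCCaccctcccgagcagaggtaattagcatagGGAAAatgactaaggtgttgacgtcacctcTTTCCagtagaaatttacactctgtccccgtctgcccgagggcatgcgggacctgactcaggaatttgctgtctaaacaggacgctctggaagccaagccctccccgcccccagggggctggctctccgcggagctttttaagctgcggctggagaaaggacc
Rcan1 upstream start: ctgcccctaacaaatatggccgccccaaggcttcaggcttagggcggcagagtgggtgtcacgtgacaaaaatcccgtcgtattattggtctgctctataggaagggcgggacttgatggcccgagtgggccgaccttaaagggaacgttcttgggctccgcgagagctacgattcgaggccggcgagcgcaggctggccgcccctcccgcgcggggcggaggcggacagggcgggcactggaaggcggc

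The internal window held 3 cores and the upstream window 0. A start of Nfatc2 and the listed start of Ppp3cb also held 3. Of 32851 mouse promoter windows of this length in RefSeq, 55.6% held at least 1 core and 6.39% at least 3. Starts on chromosome 18, where Nfatc1 lies, were left out of the count for the 10 genes. On the other chromosomes the RefSeq table listed 10 starts for 7 of these genes, and 5 of these starts had at least 1 core. A match to so short a motif is a description of the letters and no evidence of binding.

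Rcan1 had 30.7, 34.0, 36.5 and 20.1 CPM in Alox5 KO, 21.3, 50.3, 20.4 and 37.7 CPM in the Il25 KO libraries, 45.2, 55.0, 34.0 and 44.0 CPM in those of St2 KO, and 49.8, 42.0, 21.8 and 39.6 CPM in WT. The ranges overlapped widely, and libraries of 1 genotype differed by up to 2.47 times. None of its 4 differences passed the unadjusted threshold, and they ran from -0.41 ± 0.265 (Il25 KO over St2 KO, adjusted p = 0.621) to 0.18 ± 0.311 (St2 KO over WT, adjusted p = 0.934). Rcan1 had 42 to 177 counts per library, and the 95% interval of Alox5 KO over WT reached from -0.92 to 0.30.

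Exons of 3 of the 10 genes touch those of another gene, and the counting was not stated to use strand. Nfatc3 shares 219 bases with Esrp2, Orai1 7 bases with Gm2479, and Itpr1 289 bases with Gm44101 and Gm44040. These neighbours held 7, 5, 109 and 5 counts over all libraries, against 4607 to 10953 counts of the 3 genes themselves.

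The rest of the pathway was read from 4 lists. Of 18 tested genes of calcineurin and NFAT control other than the 10, 1 fell in Il25 KO over WT, where 0.417% of all genes were called. In the other pairwise comparisons 0 were called, and DESeq2 also called 0. An unadjusted p under 0.05 was found for 1 gene in each comparison with WT and 3 in Il25 KO over St2 KO. Of all genes 7.17% (Alox5 KO), 9.3% (Il25 KO) and 7.49% (St2 KO) did over WT, and 11.3% in Il25 KO over St2 KO. The NFAT kinase gene Csnk1a1, among the most abundant of the list by CPM (281 to 381 CPM over the libraries), was not called in any pairwise comparison. The median log2 fold change of the list was 0.05 in Alox5 KO over WT, 0.06 in Il25 KO over WT, -0.11 in St2 KO over WT and 0.05 in Il25 KO over St2 KO.

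The gene that fell was Ppp3cc (ENSMUSG00000022092, chromosome 14, 70217865 to 70289471, minus strand), which encodes the gamma isoform of the calcineurin catalytic subunit. It had 73.5, 71.5, 88.4 and 88.0 CPM in Il25 KO, against 113, 140.0, 148 and 105 CPM in WT. The groups did not overlap, and the log2 fold change was -0.90 ± 0.194 (adjusted p = 0.0468). The call is marginal. It was lost without the set term (-0.62 ± 0.175, adjusted p = 0.116), without the 3 libraries low in plasma cell markers (adjusted p = 0.322), within set TS (adjusted p = 0.362), and in 13 of 16 fits that left out 1 library, where the adjusted p reached 0.259 while the log2 fold change stayed between -1.06 and -0.82 over the 16. It was kept when the library left out was Alox5 KO 3, St2 KO 3 or WT 1. Ppp3cc lies on the chromosome of Il25 (chromosome 14, 54932695 to 54935837), 15.28 megabases away, and whether the knockout's flanking chromosome bears on it was not tested. Per length, Ppp3cc stood at 34.9 ± 8.08 CPM per kb, above Ppp3ca at 24.2 ± 2.26 and Ppp3cb at 9.09 ± 2.25 CPM per kb (SD over 16 libraries).

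Among 19 tested genes of calcium entry, release and clearance, 0 were called in Alox5 KO over WT and in St2 KO over WT, with 2 under the unadjusted threshold in each (7.17% and 7.49% of all genes) and 0 called by DESeq2. Under that threshold were 4 in Il25 KO over WT and 1 in Il25 KO over St2 KO, against 9.3% and 11.3% of all genes. In Il25 KO over WT (0.417% of all genes called), and again in Il25 KO over St2 KO (1.24%), 1 gene fell. It was Itpr3 (ENSMUSG00000042644, chromosome 17, 27057304 to 27122223, plus strand), the type 3 inositol trisphosphate receptor. Itpr3 had 54.8, 56.1, 77.0 and 77.6 CPM in Il25 KO, against 81.3, 91.4, 149 and 145 CPM in St2 KO and 92.3, 124, 145 and 136 CPM in WT. Every Il25 KO library lay below every library of the other 2 genotypes, and within each genotype both TS libraries were below the others. The log2 fold change was -1.08 ± 0.156 in Il25 KO over WT (adjusted p = 0.00148) and -0.76 ± 0.124 in Il25 KO over St2 KO (adjusted p = 0.00206). It was -0.94 ± 0.205 and -0.59 ± 0.207 within set TS, where neither passed (adjusted p = 0.327 and 0.449), and the second did not pass without the set term (adjusted p = 0.0746). The list medians were -0.07 in Alox5 KO over WT, 0.08 in Il25 KO over WT, -0.08 in St2 KO over WT and 0.03 in Il25 KO over St2 KO. Its most abundant genes by CPM, Itpr2 (476 to 692 CPM) and the STIM regulator Saraf (457 to 558 CPM), were not called.

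None of 17 tested receptors and enzymes upstream of calcium release was called by edgeR, with 1 under the unadjusted threshold in Alox5 KO over WT, 3 in Il25 KO over WT, 0 in St2 KO over WT and 4 in Il25 KO over St2 KO. Of all genes 7.17%, 9.3%, 7.49% and 11.3% were, in that order. DESeq2 called 1 of the 17 in Il25 KO over WT and 0 in the other 3 comparisons. It was Nmur1, the receptor for the neuropeptide neuromedin U, named here after its values were seen, at -0.51 ± 0.132 with DESeq2 (adjusted p = 0.0206) and -0.52 ± 0.126 with edgeR (adjusted p = 0.122). The receptor for cysteinyl leukotrienes Cysltr1 had 566 ± 50.5 CPM in Alox5 KO, 485 ± 17.9 CPM in Il25 KO, 467 ± 38.2 CPM in St2 KO and 511 ± 37.8 CPM in WT (SD, n = 4 each). Alox5 KO over WT was 0.16 ± 0.086 for Cysltr1 (adjusted p = 0.723).

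The last list held 22 tested genes known to respond to NFAT or calcium in lymphocytes, many of which also respond to other signals. In Alox5 KO over WT and Il25 KO over WT 0 were called, with 1 and 5 under the unadjusted threshold and 0 called by DESeq2. In St2 KO over WT 2 fell and 0 rose, where 0.298% of all tested genes were called, and 8 had an unadjusted p under 0.05, where 7.49% of all genes did. In that comparison 17 of 22 estimates were below 0, where 48.2% of all genes were, and the list median was -0.34, beside 0.01 over all genes. In Il25 KO over St2 KO 3 rose and 0 fell, where 1.24% of all genes were called, and 9 had an unadjusted p under 0.05, where 11.3% of all did, with a median of 0.16 beside -0.01. DESeq2 called 3 genes of the list in St2 KO over WT and 4 in Il25 KO over St2 KO. Beyond the genes described next, its calls added Nr4a3 in Il25 KO over St2 KO, an immediate early gene related to Nr4a1 and named after its values were seen, at 1.2015 ± 0.314 with DESeq2 (adjusted p = 0.0115) and 1.19 ± 0.281 with edgeR (adjusted p = 0.0602). These 2 comparisons share the St2 KO libraries. The abundant response gene Rgs2 had 651 ± 66.1 CPM in St2 KO and 674 ± 33.9 CPM in WT (SD, n = 4 each), a log2 fold change of -0.04 ± 0.140 (adjusted p = 0.966).

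Csf2 (ENSMUSG00000018916, chromosome 11, 54247271 to 54249667, minus strand), which encodes the cytokine GM-CSF, had 50.9, 77.7, 86.2 and 83.9 CPM in St2 KO, against 271, 267, 279 and 248 CPM in WT. All St2 KO libraries were far below all WT libraries, a log2 fold change of -1.81 ± 0.179 (adjusted p = 1.27e-05). Nr4a1 (ENSMUSG00000023034, chromosome 15, 101254269 to 101274795, plus strand), an immediate early gene for a nuclear receptor, had 535, 469, 657 and 587 CPM in St2 KO, against 1009.7, 917, 953 and 979 CPM in WT. It fell by 0.86 ± 0.123 on the log2 scale (adjusted p = 0.00137), again with no overlap. Both were called in every alternative fit.

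In Il25 KO over St2 KO, Csf2 rose by 1.54 ± 0.152 and Nr4a1 by 0.92 ± 0.100 (adjusted p = 6.48e-06 and 2.27e-05). The chemokine gene Ccl1 (ENSMUSG00000020702, chromosome 11, 82176657 to 82305690, minus strand) had 37.5, 69.7, 108 and 33.4 CPM in Il25 KO, against 4.72, 10.3, 10.6 and 17.9 CPM in St2 KO. The log2 fold change was 2.54 ± 0.527 (adjusted p = 0.0208). The groups did not overlap, yet the call was lost without Il25 KO library 2, without Il25 KO library 3 and without any 1 of the St2 KO libraries, with an adjusted p of up to 0.102, while the log2 fold change stayed between 2.12 and 2.93 in all 16 such fits. It was also lost without the 3 libraries low in plasma cell markers (adjusted p = 0.112). In St2 KO over WT, Ccl1 was -2.84 ± 0.626, which did not pass with edgeR (adjusted p = 0.0751) and did with DESeq2 (adjusted p = 0.000319).

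Beside these shifts the 10 genes themselves had, in St2 KO over WT, no unadjusted p under 0.05. Rcan1 stood at 44.6 ± 8.61 CPM in St2 KO and 38.3 ± 11.8 CPM in WT (SD, n = 4 each). Whether calcineurin or NFAT activity differed was not tested. Summed over the B and plasma cell list, the median was 449 CPM in St2 KO and 725 CPM in WT, with ranges that did not overlap. In the fit without the libraries lowest in these markers, St2 KO over WT was -1.67 ± 0.183 for Csf2 and -0.89 ± 0.157 for Nr4a1 (adjusted p = 0.00039 and 0.0311). The St2 KO libraries kept in that fit still had 433 to 542 CPM of these markers, against 648 to 838 CPM in WT. That fit therefore leaves the difference in these markers in place. In bulk samples such as these, fewer cells that express a gene and less RNA per cell cannot be told apart.

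**Figure D4:**
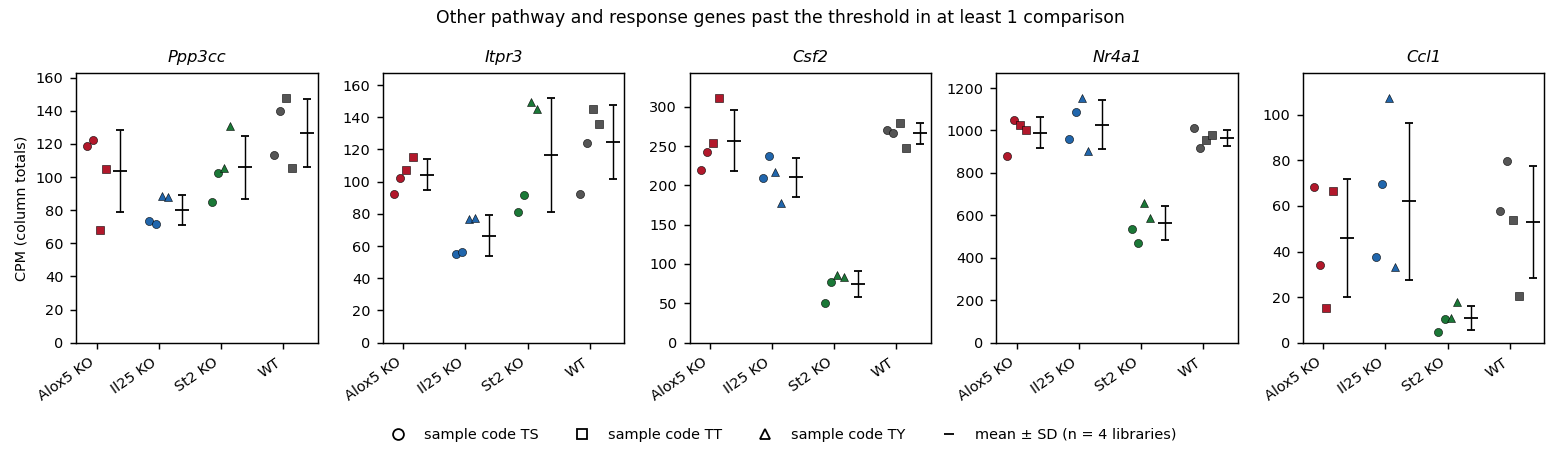
CPM by library and genotype (Alox5 KO, Il25 KO, St2 KO, WT) of the 5 other pathway and response genes called in at least 1 pairwise comparison by the edgeR test with the set term, with markers for the sample code and bars for the mean ± SD of 4 libraries. By mean, Ppp3cc and Itpr3 are lowest in Il25 KO, and Csf2, Nr4a1 and Ccl1 are lowest in St2 KO.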

How the data were processed

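ILC2 were sorted after a Liberase TM digest of the proximal 5 cm of small intestine and a Percoll step, per the labels' protocols. Libraries used Nextera XT, which marks no strand. The labels give no sort gate. The authors deposited 1 table of raw read counts per gene for all 16 libraries, not scaled for depth or length. Reads were handled with HTSeq 0.4.1, FastQC 0.11.3, STAR 2.4.2a and Picard 1.134 on GRCm38, per the submitters' processing notes. Of 53471 rows, 6 repeats of an identical row were dropped. Genes without a symbol (3433) held 0.184% of counts. No 2 libraries were identical.

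CPM were computed from the column totals (2086864 to 3216937, median 2625205.5). Tests were run in R 4.3.3 with edgeR 4.0.16 (quasi-likelihood F test, robust dispersions), after scaling by trimmed means (TMM) and filtering by filterByExpr (11742 genes kept), with terms for genotype and sample-code set over all 16 libraries, leaving 10 residual degrees of freedom. The set term follows the sample codes. Set TY differs from sets TS and TT in Xist and Ddx3y counts, so sex and set TY cannot be told apart. The standard error is the log2 fold change over the square root of F. P-values were adjusted by Benjamini-Hochberg over all genes tested, and all tests are two-sided. The newer mode of the fit was used; this was settled with the calls of both modes already known. Alternatives were other models, scalings, filters and libraries, DESeq2 1.42.0 and the legacy mode of edgeR, the last chosen after seeing the data. Procedures were tested on simulated data. Exon lengths and positions came from GENCODE M21 on GRCm38, and promoter windows from RefSeq, GRCm38.p6. Protein sequences were not used here.

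The 10 genes, the gene lists, the marker lists and the tests were chosen with earlier results of these data known. Beside the 10 genes, the text names each gene of the 4 pathway lists called in a pairwise comparison by the edgeR test with the set term, the 2 most abundant by CPM of each list, and the targeted and reporter genes. Of the most abundant, 2 genes are not reported here. Xist, Ddx3y and the marker genes given as checks of the libraries were added to these. With 4 libraries per genotype, the median standard error over all genes was 0.213 to 0.268 on the log2 scale.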

Additional observations from a re-analysis of the deposited data

Results flagged for a closer look

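A sample was set apart when its gap to the nearest of the 4 libraries of its genotype relative to the range exceeded Dixon's 95% critical value. This was applied to 80 groups of 4 values, and 4 were set apart, where chance alone sets apart about 1 in 20 groups, or 4.

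Nfatc2 was high in Il25 KO library 3, at 49.3 CPM, with 20.9 to 24.1 CPM in the other Il25 KO libraries. The share of Nfatc2 in the length-scaled level of the 3 NFAT genes was 10.7% in the same library, against 4.77% to 5.11% in the others. Without that library Il25 KO over WT was -1.14 ± 0.316 for Nfatc2 (edgeR, adjusted p = 0.238). Il25 KO library 3 also had the highest summed level of 6 myeloid markers, 35.4 CPM, where the other Il25 KO libraries had 1.08 to 4.04 CPM. The part of myeloid RNA in its Nfatc2 value was not tested.

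Nfatc1 was low in St2 KO library 1, at 129 CPM, with 159 to 161 CPM in the other St2 KO libraries. The length-scaled ratio of Stim1 to Stim2 was low in Il25 KO library 2, at 2.59, with 3.27 to 3.37 in the other Il25 KO libraries.

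Differences between sample-code sets were tested in 20 cases (10 genes, Alox5 KO over WT and Il25 KO over St2 KO). By edgeR's test 0 passed after adjustment and 2 had an unadjusted p under 0.05 (Nfatc1 and Stim2, given above).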

How the results depend on the processing

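None of the 10 genes was called in any of the 5 tests under any of the 25 alternatives, with the lowest adjusted p at 0.120 in a pairwise comparison and 0.122 among the 4 genotypes. Some uncalled estimates near 0 changed sign, and the cause was not tested. Without the set term, St2 KO over WT was 0.010 for Ppp3ca and -0.030 for Ppp3cb. For Nfatc3, Il25 KO over WT was 0.0050 by DESeq2 and 0.0056 with median-of-ratios scaling, and Il25 KO over St2 KO was -0.014 with library totals. Within set TS, Alox5 KO over WT was 0.022 for Nfatc1 and -0.050 for Itpr1, and Il25 KO over WT was 0.10 for Ppp3cb and 0.21 for Stim2. Without Alox5 KO 1, Alox5 KO 2 and St2 KO 1 together, Alox5 KO over WT (then set TT alone) was 0.051 for Orai1 and -0.065 for Stim1. In the same fit Il25 KO over WT was 0.094 for Stim2, and St2 KO over WT was -0.094 for Orai1.

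Leaving out 1 library at a time gave ranges across 0 for 17 of the 40 estimates. In Alox5 KO over WT these were Itpr1 (-0.053 to 0.20), Orai1 (-0.17 to 0.055) and Stim1 (-0.033 to 0.13). In Il25 KO over WT they were Itpr1 (-0.11 to 0.21), Nfatc1 (-0.10 to 0.13), Nfatc3 (-0.049 to 0.032), Ppp3ca (-0.016 to 0.23), Ppp3cb (-0.28 to 0.037), Rcan1 (-0.61 to 0.12) and Stim2 (-0.31 to 0.0039). In St2 KO over WT they were Itpr1 (-0.10 to 0.097), Nfatc1 (-0.087 to 0.11), Orai1 (-0.057 to 0.22), Ppp3ca (-0.16 to 0.080) and Stim1 (-0.071 to 0.083). In Il25 KO over St2 KO they were Itpr1 (-0.011 to 0.23) and Nfatc1 (-0.12 to 0.071).

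The replicate block, with replicate number in place of the set, reversed St2 KO over WT for Ppp3ca (0.012) and Ppp3cb (-0.028), called 0 of the 10 genes, and called 20, 98, 66, 138 and 242 genes in all for Alox5 KO, Il25 KO and St2 KO over WT, Il25 KO over St2 KO and the 4 genotypes. Same-numbered libraries of different genotypes correlated above 0.1 in 3 of 24 pairs. Differently numbered ones did so in 5 of 72 pairs, and 7 of 16 libraries matched best with their own number. Every same-numbered pair above 0.1 also shared a sample-code set, and so did most of the differently numbered ones above 0.1. Set was not taken out of these correlations, so they cannot tell a shared number from a shared set. Paired libraries need not all correlate that far, so these counts cannot exclude pairing. The main fit took the libraries to share only a number. Under the block Ppp3cc in Il25 KO over WT and Ccl1 in Il25 KO over St2 KO were not called (adjusted p = 0.130 and 0.0563).

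Calls over all genes in Alox5 KO, Il25 KO and St2 KO over WT, in Il25 KO over St2 KO and among the 4 genotypes were 12, 49, 35, 146 and 137. DESeq2 gave 62, 92, 69, 248 and 282, legacy edgeR 5, 37, 29, 100 and 112, no set term 14, 95, 58, 132 and 205, set TS alone 3, 9, 26, 33 and 42, and the fit without 3 libraries 3, 26, 21, 90 and 83. Leaving out 1 library gave 6 to 20, 31 to 53, 19 to 45, 80 to 168 and 95 to 164. Ppp3cc also lost its call under legacy edgeR (adjusted p = 0.0595) and with no filter (0.081), and Ccl1 with no filter (0.0602) and within set TS (0.115). With TMM-scaled CPM the genotypes kept their order for 8 of the 10 genes, all but Nfatc3 and Itpr1.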
